A study of Mus musculus with 4 samples.

Results

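Ciliated airway cells were picked from 4 single-cell libraries of embryonic mouse lung by a rule on their transcripts. A barcode was taken as a ciliated cell when it had at least 500 genes and at most 20% mitochondrial transcripts, under 0.2% of its transcripts from Col1a1, Col1a2 and Col3a1, none of Cdh5 and Ptprc, and transcripts of 3 or more of Foxj1, Ccdc153, Tmem212, Rsph1, Dynlrb2 and Cfap126. The rule took 172 of the 27815 deposited barcodes, 113 in the 2 Dnmt1 CKO libraries and 59 in the 2 Wild type libraries. All lungs were taken at E18.5, late in gestation, when the airways are lined by ciliated and secretory cells and the alveoli are still forming. The genotype of the Dnmt1 CKO lungs combines Tbx4-rtTA with Tet-O-Cre, a Cre that rtTA switches on, and with Dnmt1-D/D, the deleted gene, and the other lungs are labelled Wild type. Dnmt1 encodes the enzyme that keeps DNA methylation in place when DNA is copied. Tbx4-rtTA is a doxycycline-dependent activator driven by Tbx4 sequences that act in the lung mesenchyme, the connective tissue, so ciliated cells are not the cells in which Cre is meant to act. The labels do not say which exons are deleted or whether each library came from its own animal, so p-values measure the spread between these libraries.

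Motile cilia beat in waves that carry mucus out of the airway. A cell that makes them leaves the cell cycle and switches on GEMC1 and multicilin, which with E2F factors and MYB open a programme of centriole amplification. Many centrioles are built in each cell, largely on deuterosomes, ring-like platforms that contain DEUP1. The centrioles dock at the cell surface as basal bodies, and FOXJ1 and RFX factors drive the genes of the axoneme, the microtubule shaft with its dynein motors, radial spokes and central pair. In the airway the cells that do this share a precursor with the secretory club cells, and Notch signalling keeps a cell on the secretory side.

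RFX factors bind the X-box, whose core repeat is GTTGCC, and FOXJ1, like other forkhead factors, binds sites such as TGTTTAC. Both strings were searched on either strand in the RefSeq promoter windows of GRCm38.p6, 300 bases that start 250 bases before a gene's start. GTTGCC was present in 88 of the 197 genes of the ciliary lists that had a window (44.7%), against 3821 of all 27025 genes with a window (14.1%). TGTTTAC was present in 8 of the same 197 genes (4.06%), against 1095 of all genes (4.05%). By list the share with GTTGCC ran highest at 13 of 23 genes of the BBSome and transition zone (56.5%). Next came 10 of 18 tubulin modifying enzymes (55.6%) and 6 of 11 dynein assembly and docking genes (54.5%). Among other lists it was 14 of 29 tubulin and inner microtubule genes (48.3%), 11 of 23 radial spoke genes (47.8%) and 6 of 20 axonemal dyneins (30.0%). The lists were chosen as ciliary genes, and a match is a string in a window, not a bound site. The windows of a pair of genes used by the rule, Dynlrb2 (chr8:116504765-116505064, plus strand) and Ccdc153 (chr9:44240427-44240726, plus strand), are printed because each holds GTTGCC. Mlf1 (chr3:67373847-67374146, plus strand), one of the genes that marked the cells most, holds both strings without overlap. Deup1 (chr9:15627797-15628096, minus strand), the deuterosome gene, holds the core repeat on the other strand as GGCAAC. The capitals mark the matches.
Dynlrb2: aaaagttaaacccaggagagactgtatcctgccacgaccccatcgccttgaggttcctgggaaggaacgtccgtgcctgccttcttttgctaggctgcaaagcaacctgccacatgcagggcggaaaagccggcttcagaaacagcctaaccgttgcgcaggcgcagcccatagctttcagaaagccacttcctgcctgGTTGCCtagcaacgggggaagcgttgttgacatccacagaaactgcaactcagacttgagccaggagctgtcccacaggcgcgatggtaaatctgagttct
Ccdc153: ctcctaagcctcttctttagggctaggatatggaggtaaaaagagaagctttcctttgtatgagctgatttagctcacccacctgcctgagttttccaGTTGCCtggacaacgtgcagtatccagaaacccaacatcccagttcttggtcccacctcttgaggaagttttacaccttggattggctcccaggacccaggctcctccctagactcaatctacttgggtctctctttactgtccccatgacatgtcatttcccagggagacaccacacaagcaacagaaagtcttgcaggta
Mlf1: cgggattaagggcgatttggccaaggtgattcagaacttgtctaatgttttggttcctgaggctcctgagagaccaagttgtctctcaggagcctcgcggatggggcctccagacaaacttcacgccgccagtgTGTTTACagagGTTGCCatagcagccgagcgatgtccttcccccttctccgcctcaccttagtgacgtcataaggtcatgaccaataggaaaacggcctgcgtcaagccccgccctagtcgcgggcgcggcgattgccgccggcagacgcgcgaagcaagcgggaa
Deup1: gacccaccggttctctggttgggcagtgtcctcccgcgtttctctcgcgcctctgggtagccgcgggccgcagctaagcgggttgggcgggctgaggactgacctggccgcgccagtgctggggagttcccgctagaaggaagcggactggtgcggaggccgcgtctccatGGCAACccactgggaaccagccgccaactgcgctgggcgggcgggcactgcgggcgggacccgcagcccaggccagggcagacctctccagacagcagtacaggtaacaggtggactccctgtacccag

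The Dnmt1 CKO libraries held 24 and 89 ciliated cells and the Wild type libraries 17 and 42. Their transcripts, counted as UMIs, summed to 676923 and 2562629 in Dnmt1 CKO, against 391288 and 1780282 in Wild type. The median ciliated cell had 15319 and 17285 UMIs in Dnmt1 CKO, against 12558 and 20238 in Wild type, more than the other epithelial cells at 9571 and 8120.5 in Dnmt1 CKO, against 7410 and 9142 in Wild type. In Wild type replicate 1, the smallest set, 1 cell held 32.1% of all ciliated UMIs. No ciliated cell was called a doublet by Scrublet, which called between 1.51% and 4.31% of the kept barcodes of a library. No barcode of a ciliated cell occurred in a second library. By Xist and Y-linked transcripts, each genotype had 1 female library (Dnmt1 CKO replicate 2 and Wild type replicate 1) and 1 male. Other epithelial cells were barcodes under the same filters that were not ciliated and had 3 or more of Epcam, Cdh1, Krt8, Krt18, Krt7 and Nkx2-1, 3168 in all. Endothelial barcodes had transcripts of Cdh5 and Pecam1 and none of Epcam. Secretoglobin-rich barcodes were 143 that were not ciliated and had 3 or more of Scgb1a1, Scgb3a2, Cyp2f2, Cbr2 and Upk3a. They also had at least 2% of UMIs from Scgb1a1, Scgb3a2, Cyp2f2 and Cbr2 together and under 1% from Sftpc. This class was defined after the data were seen. All levels below are CPM, a gene's UMIs scaled to the total UMIs that a class of cells had in a library.

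The rule's edge is described by UMIs of its own 6 genes, whose number rises by design with the genes detected. Of the barcodes that met the other conditions, 30 had transcripts of 2 of the 6 genes, with a median of 2 such UMIs (2 to 5) among 20552.5. The 10 barcodes with 3 of the genes had a median of 8 such UMIs (4 to 27) among 1323.5, so the counts overlapped. All 6 genes were found in 97 of the 172 ciliated cells. A further 35 kept barcodes had 3 or more of the genes but failed the filters on collagens, Cdh5 or Ptprc. Epcam, the epithelial adhesion protein, was detected in 83.3% and 82.0% of ciliated cells in Dnmt1 CKO, against 82.4% and 81.0% in Wild type. Nkx2-1, the transcription factor of lung epithelium, was detected in 87.5% and 80.9% in Dnmt1 CKO, against 94.1% and 73.8% in Wild type. Both epithelial markers, which the rule did not use, were thus present in most ciliated cells. In endothelial barcodes, chosen in part by lacking Epcam, Nkx2-1 was found in at most 2.47%.

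Markers of other cell types ranged from absent to abundant, and those of secretory cells are described further below. The basal cell genes Krt5, Krt14, Trp63 and Ngfr had no UMI in any ciliated cell, which for Krt5 allows a share of cells with a UMI of up to 12.5% and 3.37% in Dnmt1 CKO, against 17.6% and 7.14% in Wild type. Such limits bound detection and not expression, and with the intervals below they cover counting error only. Krt15, a keratin of the list of basal markers, had 369 and 459 CPM in Dnmt1 CKO, against 555 and 441 CPM in Wild type. In other epithelial cells Krt15 was lower, at 58.6 and 68.8 CPM in Dnmt1 CKO, against 26.4 and 42.1 CPM in Wild type. The 7 neuroendocrine markers summed to at most 2.8 CPM in each of the 4 libraries. The 10 alveolar type 2 markers, of the cells that make surfactant, summed to 2780.2 and 9479 CPM in Dnmt1 CKO, against 1431 and 3781 CPM in Wild type, far under the 64609 to 93316 CPM of other epithelial cells. Sftpc, which encodes surfactant protein C, was found at equal depth in 50% and 64.0% of ciliated cells in Dnmt1 CKO, against 56.2% and 51.4% in Wild type. In endothelial barcodes, which should lack it, the share was 59.6% and 83.3% in Dnmt1 CKO, against 60.7% and 61.4% in Wild type. Endothelial barcodes had medians of 4609 to 6762 UMIs before thinning. The Sftpc shares of ciliated cells were under these background shares in every library.

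A few cells held far more than that, and all of them were in Dnmt1 CKO. Sftpc took over 1% of the UMIs in 13 cells of Dnmt1 CKO replicate 2 and in 0 of the other libraries, with a highest share of 8.42%. Haemoglobin took over 1% in 4 and 2 cells in Dnmt1 CKO and in 0 and 0 cells in Wild type, with a highest share of 62.0%. These were 19 cells in all, 4 in Dnmt1 CKO replicate 1 and 15 in Dnmt1 CKO replicate 2, and results that rest on them are given with and without them below. Leaving them out was decided after the data were seen.

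Set against other epithelial cells, ciliated cells had high levels of most genes of the axoneme. The difference for each gene was the mean over the 4 libraries of the difference in log2(CPM + 10). Since the rule chose the cells by this contrast, the differences are a description without a test. Dynlrb2, a dynein light chain, led at 5.52, before Rsph1, a protein of the radial spoke head, at 5.46 and Foxj1 at 5.27, all 3 of them rule genes. Among the named genes that followed, gene models without a name left aside, Lrrc23, a radial spoke protein, stood at 5.12 and Mlf1 at 5.11. Ccdc39, a molecular ruler that sets the spacing of inner dynein arms and spokes, stood at 5.02, and Ccdc113, Riiad1 and Meig1 at 4.97, 4.94 and 4.91. Tuba1a, an alpha-tubulin, stood at 4.72, Spag17, a central pair protein, at 4.59, and Tubb4b, the main beta-tubulin of cilia, at 4.29. In all, 1289 of 9492 genes lay above 1 and 840 of them did so in every library, while 489 lay below -1.

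**Figure D1:**
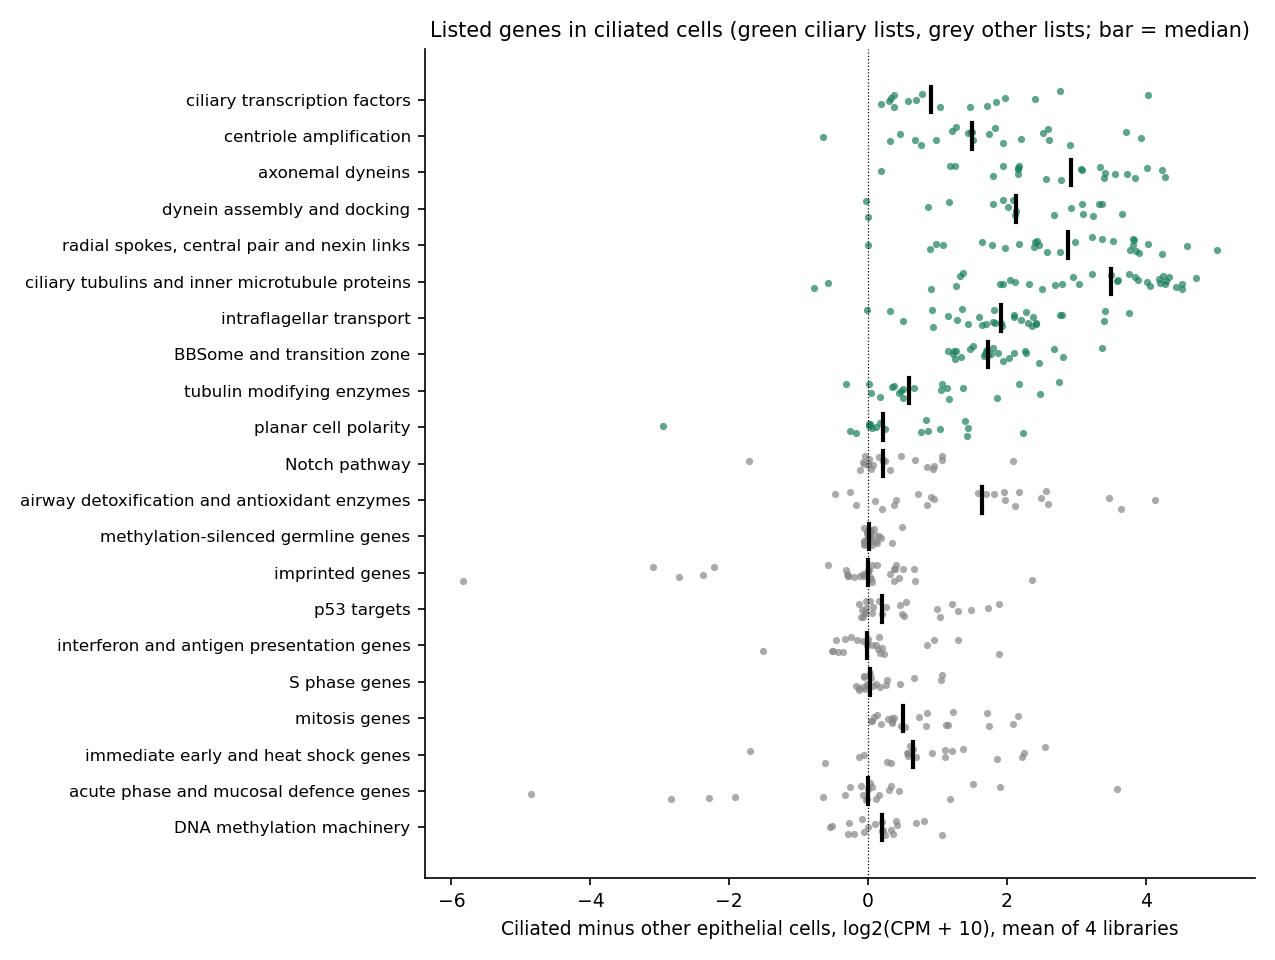
Each point is a listed gene, placed by the mean over the 4 libraries of its level in ciliated minus other epithelial cells on the log2(CPM + 10) scale. Ciliary lists are green, other lists grey, and bars mark list medians. The medians of the dynein, radial spoke and tubulin lists sit at 2.92, 2.88 and 3.5, against 0.16 over all genes.

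The genes lowest in ciliated cells were those of the alveolar epithelium that makes up most of the comparison class. Lyz1, a lysozyme, stood at -6.32, Dlk1 and Sftpc at -5.83 each, Sftpa1 at -5.15 and Lyz2 at -4.86. Scd1, Slc34a2, Bex2, Lamp3 and Tspan8 lay between -4.48 and -4.00.

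The 6 genes of the rule were strong in every library, and are given as values. Foxj1 (chromosome 11, 116330704 to 116335399 on GRCm38.p6, protein coding, as are all genes given here with a position) had 451 and 376 CPM in Dnmt1 CKO, against 358 and 471 CPM in Wild type. Rsph1 (chromosome 17, 31255019 to 31277383) had 508 and 440.2 CPM in Dnmt1 CKO, against 457 and 457 CPM in Wild type. Dynlrb2 (chromosome 8, 116504974 to 116515915) had 792 and 590.02 CPM in Dnmt1 CKO, against 652 and 786 CPM in Wild type. The values of these 3 genes overlapped between genotypes. Cfap126 (chromosome 1, 171113918 to 171126967), which acts in basal body docking, had 279 and 305 CPM in Dnmt1 CKO, against 491 and 309 CPM in Wild type. Ccdc153 (chromosome 9, 44240676 to 44247306) had 143 and 239.6 CPM in Dnmt1 CKO, against 503 and 312 CPM in Wild type. Tmem212 (chromosome 3, 27866066 to 27896368), a membrane protein, had 73.9 and 174 CPM in Dnmt1 CKO, against 281 and 301 CPM in Wild type. The last 3 were lower in both Dnmt1 CKO libraries than in either Wild type library, although for Cfap126 the gap was small, and the genotype test is not read for a rule gene.

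Among the 16 ciliary transcription factors the median difference from other epithelium was 0.90, and 6 lay above 1 in every library. Myb, which acts early in multiciliated cells, had 179 and 134 CPM in Dnmt1 CKO, against 161 and 199 CPM in Wild type, and at most 1.65 CPM in other epithelial cells. Rfx3 had 60.6 and 74.1 CPM in Dnmt1 CKO, against 74.1 and 113 CPM in Wild type. The values for Foxa1, a forkhead factor of airway epithelium, were 63.5 and 91.7 CPM in Dnmt1 CKO, against 102 and 81.4 CPM in Wild type. Ybx1, the most abundant of the list, is a general RNA-binding factor and had 833 and 743 CPM in Dnmt1 CKO, against 764 and 736 CPM in Wild type, against 508 to 642 CPM in other epithelial cells. The list thus mixes factors of the programme with broad ones.

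Of 22 centriole amplification genes, 13 lay above 1 in every library, with a median of 1.5. Pcm1, of the satellites around centrioles, had 350.1 and 227 CPM in Dnmt1 CKO, against 243 and 409 CPM in Wild type. Cetn2, a centrin, had 321 and 228 CPM in Dnmt1 CKO, against 258 and 279 CPM in Wild type, and Cby1, a protein of the basal body, had 269 and 136 CPM in Dnmt1 CKO, against 107 and 206 CPM in Wild type. Cep290, of the transition zone at the cilium's base, had 129 and 135 CPM in Dnmt1 CKO, against 207 and 212 CPM in Wild type. The list summed to 2596 and 1539 CPM in Dnmt1 CKO, against 1587 and 2371 CPM in Wild type, highest in replicate 1 of Dnmt1 CKO and replicate 2 of Wild type, so the groups overlapped.

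Axonemal dyneins are the motors that bend the shaft. Of 22 in the files, 20 lay above 1 in every library, with a median of 2.92. Dnali1, an inner arm light intermediate chain, had 154 and 187 CPM in Dnmt1 CKO, against 171 and 249 CPM in Wild type. Wdr78, an intermediate chain, had 146 and 175 CPM in Dnmt1 CKO, against 189 and 229 CPM in Wild type. Dnah6, an inner arm heavy chain, had 91.6 and 193 CPM in Dnmt1 CKO, against 151 and 220.2 CPM in Wild type, and Dnah5, an outer arm heavy chain whose loss causes primary ciliary dyskinesia, had 60.6 and 102 CPM in Dnmt1 CKO, against 161 and 141 CPM in Wild type. At equal depth Dnah5 was found in 25% and 29.3% of ciliated cells in Dnmt1 CKO, against 43.8% and 40.0% in Wild type, and in at most 0.249% of the endothelial barcodes of any library. In the cytoplasm the dynein arms are put together by dedicated factors. Cfap298, one of these, had 412 and 341 CPM in Dnmt1 CKO, against 266 and 375 CPM in Wild type, and Zmynd10, another, had 158 and 124 CPM in Dnmt1 CKO, against 97.1 and 151 CPM in Wild type. Pih1d2 had 94.5 and 106 CPM in Dnmt1 CKO, against 118 and 137 CPM in Wild type, and Ccdc114, which docks outer arms on the shaft, had 91.6 and 88.2 CPM in Dnmt1 CKO, against 123 and 107 CPM in Wild type. The assembly and docking list had a median of 2.13, with 14 of 18 genes above 1 in every library.

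The radial spokes, central pair and nexin links that coordinate the motors had a median of 2.88, with 24 of 28 genes above 1 in every library. Ccdc39 had 287 and 291 CPM in Dnmt1 CKO, against 271 and 555 CPM in Wild type, and was the most abundant of the list. Spag17 had 208 and 229.8 CPM in Dnmt1 CKO, against 217 and 334 CPM in Wild type, Spef2, also of the central pair, had 119.7 and 187 CPM in Dnmt1 CKO, against 207 and 255 CPM in Wild type, and Rsph9, of the spoke head, had 176 and 164 CPM in Dnmt1 CKO, against 192 and 174 CPM in Wild type. The tubulins and inner microtubule proteins had the highest list median, 3.5, with 31 of 35 above 1 in every library. Tubb4b (chromosome 2, 25222160 to 25224702) had 1835 and 2636 CPM in Dnmt1 CKO, against 2423 and 2825 CPM in Wild type. Tuba1a had 835 and 1099.7 CPM in Dnmt1 CKO, against 1684 and 1166 CPM in Wild type, and Tuba1b, another alpha-tubulin, had 641 and 451 CPM in Dnmt1 CKO, against 491 and 654 CPM in Wild type. Alpha-tubulin genes are near-identical over much of their length, so reads may be split between them. Tppp3, a tubulin-binding protein, had 721 and 1078 CPM in Dnmt1 CKO, against 1638 and 1200.4 CPM in Wild type.

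The genes that all cilia use differed less from other epithelium, by list median, than those of the motile shaft. Intraflagellar transport, the traffic along the shaft, had a median of 1.92, with 24 of 31 genes above 1 in every library. Ift43 had 326 and 270.4 CPM in Dnmt1 CKO, against 339.9 and 289 CPM in Wild type and Ift74 270.3 and 270.4 CPM in Dnmt1 CKO, against 263 and 338 CPM in Wild type, whereas Ift20, at 341 and 238 CPM in Dnmt1 CKO, against 253 and 290.4 CPM in Wild type, also had 170.3 to 215 CPM in other epithelial cells. Traf3ip1, a transport protein, had 182 and 248 CPM in Dnmt1 CKO, against 317 and 295 CPM in Wild type. The BBSome and transition zone genes had a median of 1.73, with 23 of 25 above 1 in every library. Tmem107 had 331 and 222 CPM in Dnmt1 CKO, against 219.8 and 301 CPM in Wild type and B9d1 157 and 126 CPM in Dnmt1 CKO, against 166 and 159 CPM in Wild type, both of the transition zone. Arl3, a GTPase that releases cargo in the cilium, had 145 and 163 CPM in Dnmt1 CKO, against 161 and 156 CPM in Wild type. Enzymes that modify tubulin and the planar cell polarity genes, which orient the beat, differed little as lists, with medians of 0.58 and 0.21. Among the enzymes, Ttll3, a glycylase, had 62 and 75.3 CPM in Dnmt1 CKO, against 105 and 75.8 CPM in Wild type, and Ttll6, a polyglutamylase, had 34 and 53.1 CPM in Dnmt1 CKO, against 63.9 and 93.2 CPM in Wild type. Tpgs1, a subunit of a polyglutamylase, had 44.3 and 40.6 CPM in Dnmt1 CKO, against 66.4 and 43.3 CPM in Wild type, and Agbl2, a carboxypeptidase, had 29.5 and 48 CPM in Dnmt1 CKO, against 61.3 and 55.6 CPM in Wild type. In the polarity list Celsr1, a core component, had 65 and 63.6 CPM in Dnmt1 CKO, against 51.1 and 58.4 CPM in Wild type and its receptor partner Fzd3 51.7 and 34.3 CPM in Dnmt1 CKO, against 33.2 and 49.4 CPM in Wild type. Daam1, a formin, had 76.8 and 75.3 CPM in Dnmt1 CKO, against 69 and 105 CPM in Wild type, and Wdpcp had 35.5 and 38.2 CPM in Dnmt1 CKO, against 71.6 and 56.7 CPM in Wild type.

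Outside the cilium, ciliated cells shared enzymes of the airway lining. Of 24 detoxification and antioxidant genes, 12 lay above 1 in every library, with a median of 1.64. Cbr2, a carbonyl reductase, had 5111 and 4804 CPM in Dnmt1 CKO, against 6016 and 4951 CPM in Wild type, and Cyp2f2, a cytochrome P450 known from club cells, had 1008 and 1774 CPM in Dnmt1 CKO, against 1684 and 1474 CPM in Wild type. Both were higher still in secretoglobin-rich barcodes, at 8029 to 10817 CPM for Cbr2. Both genes were used to choose that class, so these values are a description and not a result. The 58 ciliated cells with over 1% Scgb1a1, described below, had 6135 CPM of Cbr2, against 2897 CPM in the other 114, and 2072 against 673 CPM of Cyp2f2. The haptoglobin gene Hp had 3119 and 4058 CPM in Dnmt1 CKO, against 4250.1 and 3949.9 CPM in Wild type, and Wfdc2, a protease inhibitor of mucosal surfaces, had 2662 and 3903 CPM in Dnmt1 CKO, against 5464 and 3347 CPM in Wild type, although the acute phase and mucosal defence list as a whole had a median of -0.01. Cdkn1c, an imprinted inhibitor of the cell cycle, had 2243 and 1946 CPM in Dnmt1 CKO, against 1725 and 2020.5 CPM in Wild type, several times its level in other epithelial cells (283 to 466 CPM), while the imprinted list had a median of 0.01. Gnas, also imprinted, had 2392 and 1899.6 CPM in Dnmt1 CKO, against 1894 and 1686 CPM in Wild type. Jag1, a Notch ligand, had 87.2 and 80.4 CPM in Dnmt1 CKO, against 84.3 and 124 CPM in Wild type, against 13.4 to 14.6 CPM in other epithelial cells. Hes1, a Notch target, had 229 and 266 CPM in Dnmt1 CKO, against 181 and 281 CPM in Wild type, and the Notch list had a median of 0.21.

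Ciliated cells were not shown to differ in number between the genotypes. They made up 5.03% (95% exact interval 3.25 to 7.39) and 7.75% (6.27 to 9.45) of epithelial barcodes, counted as ciliated and other epithelial cells together, in Dnmt1 CKO, against 1.95% (1.14 to 3.1) and 4.99% (3.62 to 6.69) in Wild type. The means were 6.39% ± 1.92 in Dnmt1 CKO and 3.47% ± 2.15 in Wild type (SD, n = 2 each), and the exact two-sided permutation test over libraries gave p = 0.333, the smallest that 2 against 2 allows. Both Dnmt1 CKO values lay above both Wild type values, with Dnmt1 CKO replicate 1 and Wild type replicate 2 almost equal. Those libraries changed places under 5 alternatives, as at 4.82% in Dnmt1 CKO replicate 1 and 4.88% in Wild type replicate 2 with 4 or more of the rule genes, and at 4.23% and 4.99% in the same libraries without the 19 cells. Of all kept barcodes the share was 0.545% and 1.55% in Dnmt1 CKO, against 0.318% and 0.823% in Wild type (exact permutation p = 0.667). Without Dnmt1 CKO replicate 2 that difference turned to -0.0253 percentage points. Secretoglobin-rich airway barcodes varied with them, so that there were 1.41 and 1.16 ciliated cells for each such barcode in Dnmt1 CKO, against 1.13 and 1.24 in Wild type (exact permutation p = 0.667). The suspensions were made by mincing and enzyme digestion of lung, and how much airway each held is not given.

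**Figure D2:**
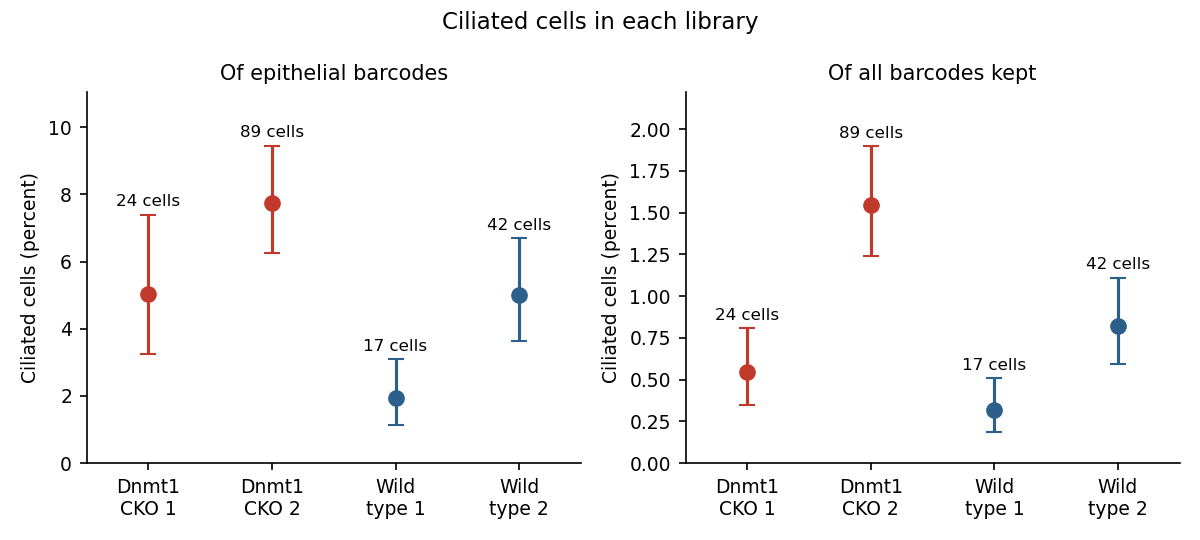
Ciliated cells as a percent of epithelial barcodes and of all kept barcodes in each library, with 95% exact binomial intervals and the number of cells. Of epithelial barcodes the 2 Dnmt1 CKO libraries sit at 5.03% and 7.75% and the 2 Wild type libraries at 1.95% and 4.99%.

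Ciliated cells differed in their transcripts of centriole amplification. Ccno, Deup1 and Cdc20b are used while centrioles are amplified. Their UMIs together exceeded 10 per 10000 in 14 cells, 3 and 5 in Dnmt1 CKO and 1 and 5 in Wild type, while 59 cells had none. Near this limit, 18 cells lay between 5 and 15 per 10000, so it divides a range and not separate types. The 14 cells had 988 CPM of Deup1 and 571 CPM of Ccno, which the split chose, against 108 and 71.8 CPM in the other 158. Genes that the split did not use went with them. Mcidas, which encodes multicilin, had 171 CPM in the 14 cells, against 20.5 CPM in the 158 others. Plk4, the kinase that starts a new centriole, had 335 against 41.8 CPM, Stil, of the same step, 143 against 16.5 CPM, and Myb 482 against 148 CPM.

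Part of the mitotic machinery was high in the same 14 cells. Cdk1, the mitotic kinase, had 355 CPM, against 44.7 CPM in the other 158, Cdc20 had 380 against 50.3 CPM and Top2a, a topoisomerase, 547 against 89.2 CPM. Mki67, a marker of cycling cells, had 24.5 CPM from 6 UMIs, against 22.5 CPM from 116 UMIs, and Pcna, of DNA replication, had 8.16 against 42.6 CPM. Genes of the axoneme differed among themselves. Tubb4b had 2486 CPM in the 14 cells, against 2587 CPM in the 158 others, Tuba1a 882 against 1142 CPM and Dnah5 81.6 against 116 CPM. The rule genes Ccdc153 and Tmem212, given as values, had 24.5 against 282 CPM and 8.16 against 220 CPM. Foxj1 was present in both, at 661 against 404 CPM. Scgb1a1, the main secretory protein of club cells, had 4698 against 22886 CPM, and Hbb-bs, a globin gene, 5172 against 548 CPM. The pooled Hbb-bs level came mostly from the 3 deuterosome-rich cells of Dnmt1 CKO replicate 1, at 19645 against 2699 CPM. In Dnmt1 CKO replicate 2 the order was reversed, at 175 against 413 CPM. In each Wild type library Hbb-bs was higher in the deuterosome-rich cells, but at most 478 CPM. Apart from these Hbb-bs values by library, the levels are pooled over cells from 4 libraries, without a test.

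**Figure D3:**
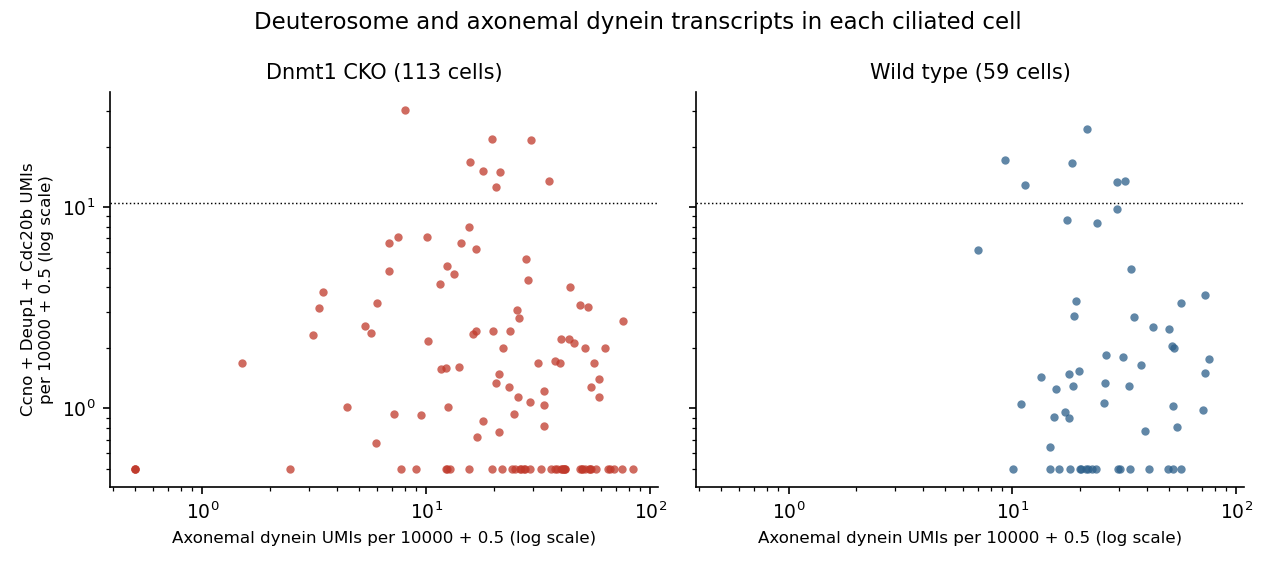
Each point is a ciliated cell, with UMIs of axonemal dynein genes on one axis and of Ccno, Deup1 and Cdc20b on the other, per 10000 UMIs plus 0.5 on log scales. The 113 Dnmt1 CKO cells are on the left and the 59 Wild type cells on the right, and the dotted line at 10 marks the 14 cells rich in deuterosome transcripts.

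The share of cells with such transcripts was not resolved between genotypes. Thinned to 3000 UMIs each, which left out 4, 14, 1 and 7 shallower cells, 35% and 34.7% of cells had a UMI of the 3 deuterosome genes in Dnmt1 CKO (7 of 20 and 26 of 75), against 50% and 42.9% in Wild type (8 of 16 and 15 of 35). The means were 34.8% ± 0.236 in Dnmt1 CKO and 46.4% ± 5.05 in Wild type (SD, n = 2 each, exact permutation p = 0.333). Without thinning the shares were 66.7% and 61.8% in Dnmt1 CKO, against 76.5% and 69.0% in Wild type. Thinned to 2000 UMIs the difference changed sign, to 3.04 percentage points higher in Dnmt1 CKO. In endothelial barcodes at 3000 UMIs, Deup1 was found in at most 0.540% and Ccno in at most 0.962% in any library. Top2a was found at the same depth in 40.0% and 14.7% of ciliated cells in Dnmt1 CKO, against 6.25% and 37.1% in Wild type, with a high and a low library in each genotype. In endothelial barcodes, which can cycle, it was found in 14.7% to 27.4%.

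Many ciliated cells also carried transcripts of secretory cells. Scgb1a1 took over 1% of the UMIs in 3 and 34 cells in Dnmt1 CKO (12.5% and 38.2%) and in 7 and 14 cells in Wild type (41.2% and 33.3%). These 58 cells had 32717 CPM of Scgb1a1 and 22278 CPM of Scgb3a2, another secretoglobin, against 2884 and 4337 CPM in the other 114. At equal depth Scgb1a1 was found in 45.0% and 70.7% of ciliated cells in Dnmt1 CKO, against 62.5% and 80.0% in Wild type. Endothelial barcodes gave 3.85% and 38.7% in Dnmt1 CKO, against 7% and 13.6% in Wild type, a background that was highest in Dnmt1 CKO replicate 2.

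The cells rich in Scgb1a1 had the most UMIs. Their median was 52063.5 UMIs, against 9371 in the other 114, and the order held in each library, with 31407 against 12103 and 49948.5 against 8438 in Dnmt1 CKO and 30356 against 6195 and 70544 against 13109 in Wild type. None of the 59 cells under 10000 UMIs was rich in Scgb1a1. For comparison, secretoglobin-rich barcodes without the ciliated genes had medians between 9857 and 12335 UMIs. Pooled over the 4 libraries, Foxj1 had 339 CPM in the Scgb1a1-rich cells, against 553 CPM in the other 114. Tubb4b had 1995 against 3641 CPM and Deup1 87.1 against 256 CPM, while Dnah9 differed little, at 105.5 against 110.2 CPM. Tuba1a had 891 against 1561 CPM when pooled. In Dnmt1 CKO replicate 1 it went the other way, at 1007 against 802 CPM. Whether a barcode of both kinds holds 1 cell or 2 was not tested, and Scrublet called 0 of them. Another 27 cells lay between 50 and 200 UMIs of Scgb1a1 per 10000, near the limit of 100, and 91 had under 10.

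**Figure D4:**
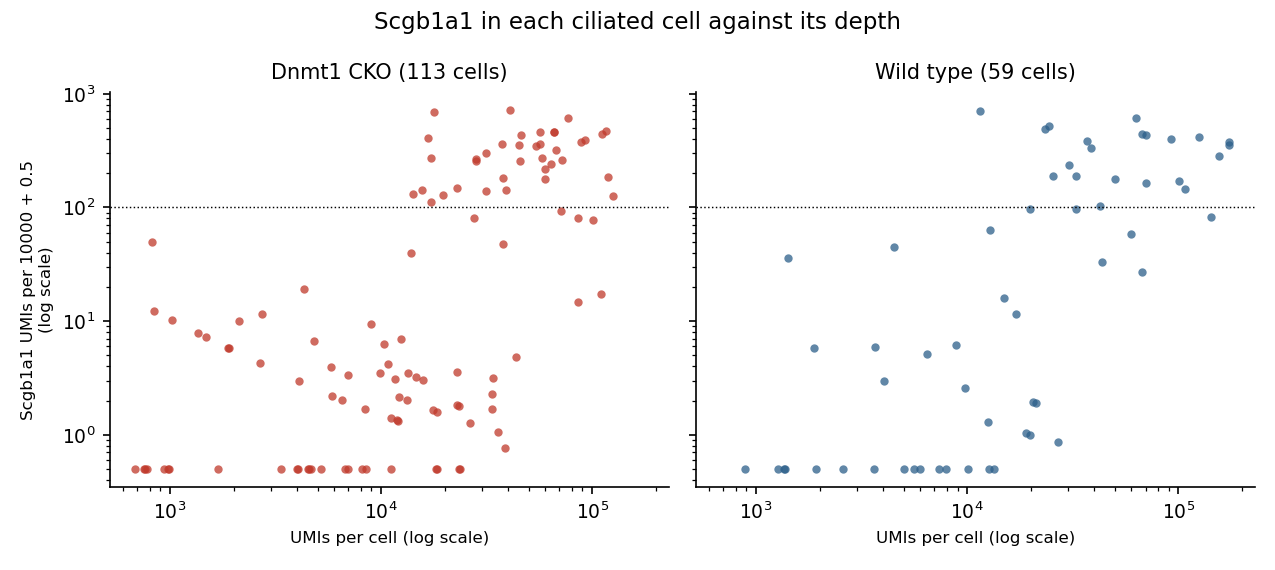
Each point is a ciliated cell, placed by its UMIs and by its Scgb1a1 UMIs per 10000 plus 0.5, both on log scales. The dotted line marks 1% of UMIs. The 58 cells above it have a median of 52063.5 UMIs, and Dnmt1 CKO is on the left and Wild type on the right.

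No gene passed the test between genotypes in ciliated cells. The quasi-likelihood test of edgeR on the sums of the 4 libraries called 0 of 9793 genes at an adjusted p under 0.05 (0.0% higher and 0.0% lower), with 135 genes higher (1.38%) and 130 lower (1.33%) at an unadjusted p under 0.05. DESeq2 called 1 gene, Lcn2. Without Dnmt1 CKO replicate 1, edgeR called 58 genes, and without Dnmt1 CKO replicate 2 it called 103, while without either Wild type library it called 0. In such a fit the other pair of libraries alone gives the spread, and the lone library is assumed to vary like it. Dnmt1 itself (chromosome 9, 20907209 to 20959888) had 22.2 and 18 CPM in Dnmt1 CKO, against 23 and 26.4 CPM in Wild type, and its fold on the log2 scale was -0.34 (SE 0.336, edgeR adjusted p = 1.000). A 3′ tag may lie outside the deleted part, so this does not check the deletion.

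The genes with the smallest p each way are given as values. Lcn2 (chromosome 2, 32384633 to 32388252), which encodes the iron-siderophore binder lipocalin-2, had 60.6 and 83.9 CPM in Dnmt1 CKO, against 12.8 and 6.18 CPM in Wild type, or 3.05 on the log2 scale (SE 0.396, edgeR adjusted p = 0.183). Mgp, a matrix protein, had 56.1 and 76.5 CPM in Dnmt1 CKO, against 5.11 and 17.4 CPM in Wild type (2.2, SE 0.384, edgeR adjusted p = 0.535). Pmp22, a membrane protein, had 54.7 and 50.3 CPM in Dnmt1 CKO, against 12.8 and 16.3 CPM in Wild type (1.70, SE 0.304, edgeR adjusted p = 0.535). The groups did not overlap for these 3 genes. Without the 19 cells rich in Sftpc or haemoglobin, Lcn2 had 63.0 and 29.5 CPM in Dnmt1 CKO and Pmp22 58.3 and 24.1 CPM, while Mgp had 59.9 and 77.2 CPM. On the other side, Wdr63 (chromosome 3, 146040526 to 146108130), an intermediate chain of inner dynein arms, had 48.8 and 53.1 CPM in Dnmt1 CKO, against 105 and 115 CPM in Wild type, or -1.07 on the log2 scale (SE 0.245, edgeR adjusted p = 0.715). Rbp2, a retinol-binding protein, had 14.8 and 15.2 CPM in Dnmt1 CKO, against 51.1 and 37.6 CPM in Wild type (-1.38, SE 0.329, edgeR adjusted p = 0.881). Stmnd1, which has a stathmin domain, had 31 and 41 CPM in Dnmt1 CKO, against 120.1 and 75.3 CPM in Wild type (-1.30, SE 0.332, edgeR adjusted p = 0.954). None of the 6 passed the test between genotypes in ciliated cells. Lcn2 passed it when either Dnmt1 CKO library was left out, with the spread taken from Wild type alone, and over its alternatives the adjusted p (edgeR or DESeq2) ran from 4.56e-12 to 1.000, the last of these without the 19 cells, where the fold was 2.26 on the log2 scale.

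Structural genes of the cilium had folds below 0 in Dnmt1 CKO for most members, with 0 called. Of the 222 tested genes of the ciliary lists, 78 (35.1%) were lower in both Dnmt1 CKO libraries than in either Wild type library and 8 (3.6%) higher in both. Over all genes tested these shares were 16.9% lower and 13.6% higher. The median log2 fold change of the 222 was -0.18, with 170 below 0, against -0.00 over all genes. All 21 tested dyneins had a fold below 0, with a median of -0.35, and 13 did not overlap, and all 26 radial spoke, central pair and nexin genes were below 0 with a median of -0.35 and 12 that did not overlap. The dynein list summed to 1324 and 1850.4 CPM in Dnmt1 CKO, against 2059.9 and 2372 CPM in Wild type, and the radial spoke list to 2102 and 2656 CPM in Dnmt1 CKO, against 2916 and 3537 CPM in Wild type. Per cell, the median was 20.3 and 24.4 dynein UMIs per 10000 in Dnmt1 CKO, against 29.1 and 23.3 in Wild type, so these medians overlapped between genotypes. In both sums the lowest library was replicate 1 of Dnmt1 CKO. Members of a list were measured in the same cells and are not independent.

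**Figure D5:**
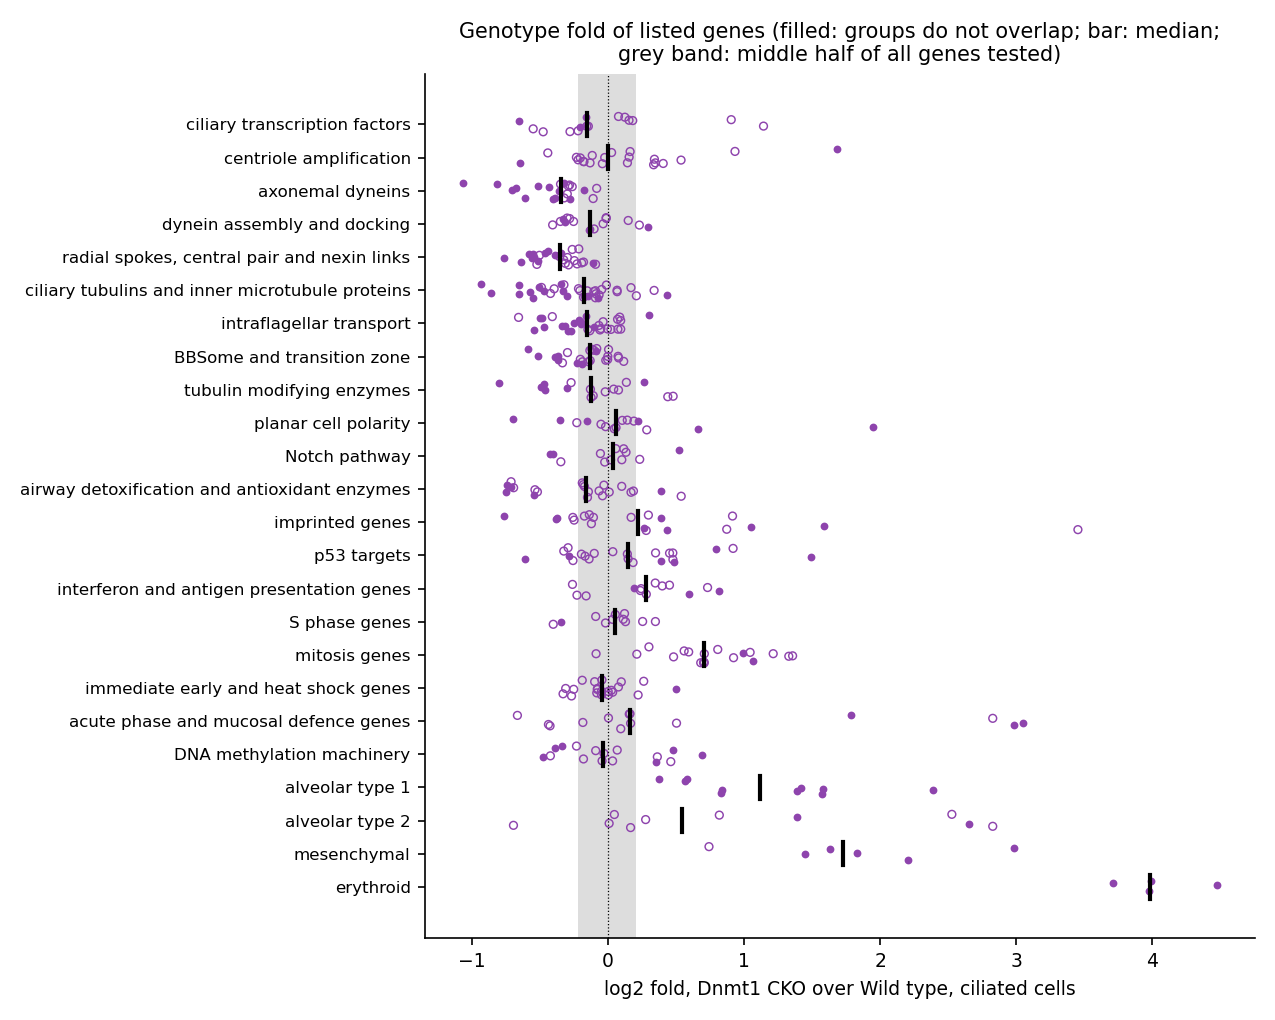
Log2 fold change, Dnmt1 CKO over Wild type, of each listed gene in ciliated cells. Filled points are genes whose groups do not overlap, bars are list medians, and the grey band holds the genes between the lower and upper quartile of all 9793 (-0.22 to 0.21). The dynein and radial spoke lists lie wholly below 0, and the alveolar type 1 and erythroid lists wholly above it.

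The other ciliary lists lay nearer to 0. Their counts without overlap stand beside 16.9% lower and 13.6% higher over all genes. Tubulins and inner microtubule proteins had a median of -0.18 with 14 of 35 lower without overlap and 1 higher, and summed to 7032 and 8781 CPM in Dnmt1 CKO, against 9982 and 9896 CPM in Wild type. Intraflagellar transport had -0.15 with 14 of 30 lower and 1 higher, and the BBSome and transition zone -0.13 with 8 of 25 lower and 0 higher. For dynein assembly the median was -0.13 with 4 of 16 lower and 1 higher, for tubulin modifying enzymes -0.12 with 6 of 17 lower and 1 higher, and for transcription factors -0.16 with 3 of 15 lower and 0 higher. Centriole amplification had a median of 0.00 (-0.48 to 0.37 with 1 library left out) with 1 of 22 lower and 1 higher, and planar cell polarity 0.06 with 3 of 15 lower and 3 higher. The median of the dyneins stayed between -0.66 and -0.22 when any 1 library was left out and was -0.33 without the 19 cells. It was -0.58 without the 58 Scgb1a1-rich cells, of which Dnmt1 CKO replicate 1 had fewest.

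Markers of some other cell types also differed in level, with 0 called. All 5 tested secretory airway markers and all 5 tested immune markers overlapped between genotypes, with median log2 folds of -0.28 and 0.12. So did the 1 tested basal marker and the 1 tested endothelial marker. For all 10 alveolar type 1 markers both Dnmt1 CKO values lay above both Wild type values, with a median log2 fold of 1.11. Over all genes tested, 13.6% were higher and 16.9% lower without overlap. The 10 markers, measured in the same cells, summed to 2238 and 1927 CPM in Dnmt1 CKO, against 787 and 1144 CPM in Wild type. Ager, a receptor of type 1 cells, had 601 and 562 CPM in Dnmt1 CKO, against 109.9 and 279 CPM in Wild type. The same list summed to 1188 and 1059.7 CPM in Dnmt1 CKO, against 1208 and 1097 CPM in Wild type, in secretoglobin-rich barcodes. That class was limited to under 1% Sftpc UMIs, a filter that these ciliated sums did not have, so the values are not like for like. Without the 19 cells the ciliated sums were 2366 and 1032 CPM in Dnmt1 CKO, against 787 and 1144 CPM in Wild type. The groups then overlapped, while the median log2 fold was 0.82. The 6 erythroid markers summed to 6934 and 737 CPM in Dnmt1 CKO, against 284 and 116 CPM in Wild type, and without the 19 cells to 408 and 243 CPM in Dnmt1 CKO, against 284 and 116 CPM in Wild type. Of the 12 mesenchymal markers 6 could be tested, and 5 were higher in Dnmt1 CKO without overlap, beside the same 13.6% over all genes. The list holds Col1a1, Col1a2 and Col3a1, which the rule limits, so its counts, sums and median are values and not a result. It summed to 165 and 301 CPM in Dnmt1 CKO, against 43.4 and 93.8 CPM in Wild type, with Pdgfrb at 0 in all 4. Without the 19 cells the mesenchymal sums were 176 and 322 CPM in Dnmt1 CKO, against 43.4 and 93.8 CPM in Wild type, and the median log2 fold was 1.73 both with and without them. Alveolar type 2 markers had a median of 0.55, which was -0.03 without the 19 cells. The part of these transcripts in the values of other genes was not tested.

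The lists on DNA methylation and its targets showed no call. None of the 30 germline genes that methylation is known to silence reached the filter on low counts. They summed to 70.9 and 53.1 CPM in Dnmt1 CKO, against 15.3 and 11.2 CPM in Wild type, and in endothelial barcodes to 118 and 143 CPM in Dnmt1 CKO, against 11 and 9.33 CPM in Wild type. Dazl, a germ cell RNA-binding protein, had 7.39 and 10.54 CPM in Dnmt1 CKO, against 0 and 0 CPM in Wild type, and Tex11, a meiotic gene, 26.6 and 0.390 CPM in Dnmt1 CKO, against 0 and 0.562 CPM in Wild type, nearly all of it in 1 library. Dazl was detected in 8.33% and 7.87% of ciliated cells in Dnmt1 CKO, against 0 of 17 and 0 of 42 in Wild type, which allow up to 17.6% and 7.14% of cells with a UMI. In endothelial barcodes, at lower median depth, the share was 7.26% and 9.45% in Dnmt1 CKO, against 0.145% and 0% in Wild type. The ciliated share was thus above the endothelial share in Dnmt1 CKO replicate 1 and below it in replicate 2. Whether either share is background was not tested. Brdt had 5.91 and 5.07 CPM in Dnmt1 CKO, against 5.11 and 4.49 CPM in Wild type. In secretoglobin-rich barcodes the germline list summed to 18.1 and 12.4 CPM in Dnmt1 CKO, against 0 and 0 CPM in Wild type. Of 20 imprinted genes tested 5 were higher and 3 lower without overlap (median 0.22, or -0.15 to 0.29 with 1 library left out), beside 13.6% higher and 16.9% lower over all genes. H19, an imprinted RNA, had 400.3 and 133 CPM in Dnmt1 CKO, against 130.3 and 47.2 CPM in Wild type. Of 16 genes of the methylation machinery 3 were higher and 3 lower (median -0.04). Among them, Kdm1a had 124 and 112 CPM in Dnmt1 CKO, against 107 and 133 CPM in Wild type and Tet3, which oxidises methylcytosine, had 99 and 83.9 CPM in Dnmt1 CKO, against 74.1 and 126 CPM in Wild type.

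The remaining lists are given by their counts of genes without overlap, higher and lower, beside which stand 13.6% and 16.9% over all genes. Of 22 p53 targets 4 were higher and 2 lower without overlap (median 0.15), of 13 interferon and antigen presentation genes 3 and 0 (0.28), of 14 acute phase genes 3 and 0 (0.16), and of 22 detoxification genes 1 and 4 (-0.16). Of 12 Notch genes 1 was higher and 2 lower (0.04), of 11 S phase genes 0 and 1 (0.05), and of 21 immediate early and heat shock genes 1 and 0 (-0.05). The 19 mitosis genes had a median of 0.71 with 2 higher and 0 lower, and the list summed to 1359 and 433 CPM in Dnmt1 CKO, against 253 and 782 CPM in Wild type, and without Dnmt1 CKO replicate 1 the median was -0.48. With 1 library left out, the median ran from -0.43 to 0.66 for the interferon list, -0.28 to 0.91 for acute phase genes, -0.58 to 0.08 for detoxification, -0.78 to 0.45 for immediate early genes, -0.06 to 0.28 for p53 targets, -0.33 to 0.36 for S phase and -0.17 to 0.05 for Notch, so none of these lists kept a direction. Cks2, a subunit of mitotic kinases, had 325 and 136 CPM in Dnmt1 CKO, against 97.1 and 209.5 CPM in Wild type. Jun, an immediate early gene, had 1745 and 3473 CPM in Dnmt1 CKO, against 2019 and 3592 CPM in Wild type, high in both second replicates. Btg2 had 895 and 1412 CPM in Dnmt1 CKO, against 1431 and 1179 CPM in Wild type and Mdm2, which holds p53 down, 129 and 283 CPM in Dnmt1 CKO, against 235 and 229 CPM in Wild type. Ifitm3, an antiviral membrane protein, had 114 and 220.1 CPM in Dnmt1 CKO, against 151 and 120.2 CPM in Wild type, and H2-D1, a class I antigen presenter, 115 and 145 CPM in Dnmt1 CKO, against 125 and 103 CPM in Wild type. For these lists 0 members were called.

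Whether the genotype change differs between ciliated and other epithelial cells was tested as an interaction with the library as a block. Of 14155 genes 55 (0.389%) had a change in ciliated cells above that in other epithelium and 16 (0.113%) a change below it. The 16 include Ccdc153, a gene of the rule that chose the cells, which is not read as a result. The 55 include Col1a2, a collagen that the rule limits, which is not read either. In other epithelial cells alone, edgeR called 1 gene between genotypes as higher (0.00709%), the germline gene Dazl, and 0 as lower (0.0%). Of the 55, 53 had a lower level in ciliated cells than in other epithelium, with medians of 33.2 and 302 CPM, whereas of the 16 this held for 0. The 55 held 6 of the 10 alveolar type 1 markers and 4 of the 10 type 2 markers. Without the 19 cells rich in Sftpc or haemoglobin, 2 genes were called, Acta2, an actin of smooth muscle (4.04, SE 0.478), and Gsto1. Of the 71 genes called with all cells, 70 kept their sign. The median difference went from 1.96 to 1.41 for the 55 and from -1.51 to -1.46 for the 16. These medians include Col1a2 and Ccdc153. With 1 library left out the count of 71 ran up to 126 without Dnmt1 CKO replicate 2 and 127 without Wild type replicate 2.

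Dlk1 (chromosome 12, 109452823 to 109463336), an imprinted gene for a membrane protein related to Notch ligands, had 8.86 and 147 CPM in Dnmt1 CKO, against 10.2 and 3.37 CPM in Wild type, set beside 920.00 and 1977 CPM in Dnmt1 CKO, against 1954 and 2325 CPM in Wild type in other epithelial cells, a difference of changes of 4.28 (SE 0.522). Without the 19 cells it had 9.45 and 13.8 CPM in ciliated cells of Dnmt1 CKO, and the call was lost (1.84). Lyz2, a lysozyme of type 2 cells and macrophages, showed the same pattern, with 10.3 and 193 CPM in Dnmt1 CKO, against 17.9 and 10.1 CPM in Wild type in ciliated cells, a difference of 3.97, and 9.45 and 16.7 CPM in Dnmt1 CKO without the 19 cells. Lims2 had 0 and 6.24 CPM in Dnmt1 CKO, against 0 and 0 CPM in Wild type (4.23, edgeR adjusted p = 0.025). For all 3 genes the high ciliated level was that of replicate 2 of Dnmt1 CKO alone.

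Dnah12, Gsto1 and Rbm24, all at higher levels in ciliated cells than in other epithelium in every library, had a lower genotype change in ciliated cells. Dnah12 (chromosome 14, 26693274 to 26891703), a dynein heavy chain, had 129 and 202 CPM in Dnmt1 CKO, against 215 and 229 CPM in Wild type, set beside 1.61 and 0.662 CPM in Dnmt1 CKO, against 0 and 0.0784 CPM in Wild type in other epithelial cells (-2.31, SE 0.442, edgeR adjusted p = 0.00326). Outside the ciliated cells the gene was near 0 in all 4 libraries, and without the 19 cells it was -2.26 and no longer called. Gsto1 (chromosome 19, 47854970 to 47864790), a glutathione transferase, had 139 and 175 CPM in Dnmt1 CKO, against 171 and 159.5 CPM in Wild type, set beside 49.6 and 55.6 CPM in Dnmt1 CKO, against 16.7 and 12.9 CPM in Wild type in other epithelial cells (-1.82). The ciliated values overlapped between genotypes and those of the other epithelium did not, and the call held without the 19 cells (-1.74). Rbm24, an RNA-binding protein, had 45.8 and 57 CPM in Dnmt1 CKO, against 71.6 and 51.1 CPM in Wild type, set beside 17.3 and 8.80 CPM in Dnmt1 CKO, against 3.87 and 3.53 CPM in Wild type in other epithelial cells (-1.72).

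A class that was meant to hold the nearest airway cells was also compared. Barcodes that were not ciliated and had 3 or more of Scgb1a1, Scgb3a2, Cyp2f2, Cbr2 and Upk3a numbered 787, but their type 2 markers summed to 61365 to 97354 CPM, above those of the secretory list, so the data go against calling them secretory cells. In this interaction 30 of 12003 genes (0.25%) had a higher change in ciliated cells and 2 (0.0167%) a lower one, and without the 19 cells 0 were called. With any 1 library left out 51 to 105 were called. Dlk1, Lyz2 and the globin gene Hbb-bs led the 30, at 4.21, 4.03 and 4.03. Hbb-bs had 4278 and 407 CPM in Dnmt1 CKO, against 151 and 55.6 CPM in Wild type in ciliated cells. The 2 lower genes were Togaram2, a protein with TOG domains, at -2.26, with 31 and 53.5 CPM in Dnmt1 CKO, against 69 and 56.2 CPM in Wild type, and Ccnd1, cyclin D1, at -1.52, with 34 and 75.3 CPM in Dnmt1 CKO, against 148 and 136 CPM in Wild type.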

How the data were processed

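Single-cell libraries were made with the 10x Chromium 3′ kit from 2 Dnmt1 CKO and 2 Wild type lung samples, per the labels' protocols. The authors deposited UMI count matrices, made with Cell Ranger 3.1.0 on GRCm38.p6 per the submitters' processing notes. Library totals were 49582593 and 54334468 UMIs in Dnmt1 CKO, against 48213065 and 56760219 in Wild type. Counts of the ciliated cells of a library, and of each other class, were pooled into 1 sum and tested with edgeR 4.0.16 (filterByExpr, TMM, quasi-likelihood test, Benjamini-Hochberg over all genes tested). DESeq2 1.42.0 was an alternative. Folds from edgeR were shrunk by adding a prior count. Each SE printed is the absolute shrunken fold over the square root of the test's F statistic, not a standard error estimated by the fit. Gene positions came from GENCODE vM21. The tests were tested on simulated data.

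The cells, the genes and the lists were chosen with earlier results of these data known. Genes named from a list were the 4 (ciliary lists) or 2 (other lists) with the highest mean CPM in ciliated cells, of which 1 is not reported here. From a comparison they were the 3 with the smallest p each way where fewer than 3 were called, and otherwise, from each interaction, the 3 largest called each way whose mean level on the log2 CPM scale reached 4 and whose genotypes did not overlap, without rule genes and unnamed gene models. Krt15, Dnah5, Ager, Dazl, H19, Acta2 and the genes given for the split cells were named after their values were seen. Other alternatives were added after the data were seen, among them leaving out cells rich in Scgb1a1, or in Sftpc or haemoglobin, and using secretoglobin-rich barcodes as the second class. Same-numbered libraries are not paired by the labels.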

Additional observations from a re-analysis of the deposited data

Results flagged for a closer look

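The genotype change in ciliated cells differed from that in other epithelial cells for the genes named from the interaction test, given here as the difference of log2 changes. It was 4.28 for Dlk1, 4.23 for Lims2 and 3.97 for Lyz2, and -2.31 for Dnah12, -1.82 for Gsto1 and -1.72 for Rbm24. Without the 19 Dnmt1 CKO cells rich in Sftpc or haemoglobin, the values were 1.84 for Dlk1, 2.76 for Lims2, 1.21 for Lyz2, -2.26 for Dnah12, -1.74 for Gsto1 and -1.61 for Rbm24, and of these Gsto1 was called. Against the barcodes that passed the secretory gate, the difference was 4.21 for Dlk1, 4.03 for Hbb-bs and 4.03 for Lyz2, and -2.26 for Togaram2 and -1.52 for Ccnd1. Without the same cells these were 1.86, 1.25, 1.37, -2.13 and -1.54, and 0 of the 5 were called. With all cells, the differences against this gate were 3.25 for Lims2, -0.78 for Dnah12, -0.41 for Gsto1 and -1.32 for Rbm24, and none of these was called.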

How the results depend on the processing

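The test between genotypes in ciliated cells called 0 genes. It called 50 without a filter on low counts (42 higher and 8 lower), 1 with DESeq2, 15 with the replicate number as a block, and 0 to 103 when 1 library was left out (0 to 45 higher and 0 to 62 lower), 58 without Dnmt1 CKO replicate 1 and 103 without Dnmt1 CKO replicate 2. The deviations of same-numbered libraries had a correlation of -0.09. With 2 libraries in each genotype, this cannot decide whether the numbers pair them. The interaction with other epithelial cells called 71 genes, and 19 with DESeq2, 3 without ciliated cells that passed the secretory gate, 2 without those rich in Sftpc or haemoglobin, 0 without the library block and 76 to 127 with 1 library left out. The interaction with the secretory gate called 32 genes, and 14 scaled by library size, 65 without the filter, 0 with DESeq2, 16 with 4 or more of the rule genes, 3 without ciliated cells that passed the gate, 0 without those rich in Sftpc or haemoglobin, 0 without the library block, 15 with secretoglobin-rich barcodes and 51 to 105 with 1 library left out.

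Some values changed sign, and the cause was not tested. The difference in the share of kept barcodes ran from -0.0253 to 0.975 percentage points with 1 library left out, and the deuterosome share differed by 3.04 percentage points at 2000 UMIs. On the log2 scale, without ciliated cells that passed the secretory gate, the Dnah12 fold was 0.40 and the list medians were 0.022 for dynein assembly, 0.59 for tubulin modifying enzymes and -0.33 for mitosis genes. Without those rich in Sftpc or haemoglobin, the Gsto1 fold was 0.045 and the median of alveolar type 2 markers -0.027. The Gsto1 fold was 0.0063 without the filter on low counts and 0.019 with collagens at most 0.05%. With 1 library left out, the fold of Lyz2 ran from -0.24 to 3.92, of Gsto1 from -0.25 to 0.14 and of Rbm24 from -0.46 to 0.10, and the median of dynein assembly from -0.28 to 0.020, of alveolar type 2 markers from -0.20 to 2.06 and of mitosis genes from -0.48 to 1.88. The small cell numbers, 24 in the smaller Dnmt1 CKO library and 17 in the smaller Wild type library, limit all levels of single genes.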
